A study of Mus musculus with 4 samples.

Results

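Cycling cells were taken from droplet single-cell RNA libraries of mouse liver as the barcodes that carried transcripts of several mitotic and replication genes at once. The cells were thus chosen by measured values of these genes. A barcode, which stands for 1 droplet and usually 1 cell, was kept when it had at least 250 genes and at most 25% of its UMIs (unique molecular identifiers, each 1 captured transcript) from mitochondrial genes. A kept barcode counted as cycling when at least 3 of the 5 genes Mki67, Top2a, Birc5, Ube2c and Pclaf had a UMI. This held for 236 of 24030 kept barcodes (0.982%). Of these, 94 came from Cyr61 KO livers and 142 from Control livers.

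The Cyr61 KO group and the Control group had 2 libraries each, from male mice of the strain Cyr61fl/fl aged 24 weeks that had eaten a NASH diet for 12 weeks. Both groups therefore shared the floxed Cyr61 gene and the diet, which is used to model fatty liver disease with inflammation. Cyr61, listed in the files as Ccn1, encodes a secreted matrix-associated protein, and the labels do not say which cells were meant to lose it or whether a library stands for 1 animal. The livers had been kept frozen in serum with DMSO, then thawed, digested and depleted of dead cells, and p-values over 2 libraries a group measure the spread between these libraries, which may be technical.

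A dividing cell copies its DNA in S phase and separates the copies in mitosis, and each step has its own set of transcripts. Mki67 encodes the Ki-67 protein that coats mitotic chromosomes, and Top2a the topoisomerase that disentangles them. Birc5 encodes survivin of the chromosomal passenger complex, Ube2c the ubiquitin-conjugating enzyme of the anaphase-promoting complex, and Pclaf a partner of the replication clamp PCNA. In liver, recruited T cells, natural killer (NK) cells, monocytes and macrophages can all divide in the tissue, and plasma cells arise from dividing B cells.

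The promoters of 3 of the 5 rule genes are shown because they hold both sets of letters known from mitotic gene control. These are TTTGAA (the letters of the cell cycle homology region, or CHR, which the DREAM complex is known to bind) and CCAAT (bound by NF-Y), searched on both strands in up to 250 bases before the gene's start. Capitals mark these matches, and in the Ube2c promoter one CCAAT overlaps one ATTGG. The sequences are from RefSeq on GRCm38.p6, run 5′ to 3′ on the gene's strand, and end at the base before the gene's first annotated base. Mki67 is on the minus strand with the stretch at chr7:135716451-135716629, Top2a on the minus strand at chr11:99024200-99024439, and Ube2c on the plus strand at chr2:164769679-164769928. These stretches are 179, 240 and 250 bases long.
Mki67: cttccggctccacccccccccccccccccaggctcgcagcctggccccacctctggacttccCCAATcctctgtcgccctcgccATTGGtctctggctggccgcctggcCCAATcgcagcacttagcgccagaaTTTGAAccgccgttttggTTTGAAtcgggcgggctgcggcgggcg
Top2a: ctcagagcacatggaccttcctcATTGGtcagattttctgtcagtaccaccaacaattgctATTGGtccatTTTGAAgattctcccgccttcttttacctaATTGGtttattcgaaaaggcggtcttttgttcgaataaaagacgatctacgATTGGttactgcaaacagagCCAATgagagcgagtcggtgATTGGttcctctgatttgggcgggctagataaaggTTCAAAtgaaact
Ube2c: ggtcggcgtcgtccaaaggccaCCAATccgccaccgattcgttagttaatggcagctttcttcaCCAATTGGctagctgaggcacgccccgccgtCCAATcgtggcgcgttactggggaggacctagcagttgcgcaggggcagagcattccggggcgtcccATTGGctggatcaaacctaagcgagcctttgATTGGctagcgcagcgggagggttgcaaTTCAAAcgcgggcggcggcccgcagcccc
Letters of the CHR were found 2 times before Mki67, 2 times before Top2a and 1 time before Ube2c, and not in the windows of Birc5 and Pclaf. CCAAT letters were found 3, 6 and 6 times in the printed stretches, and 2 times before Pclaf.

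The same search over 32851 mouse promoters gave the share over genes in general. CHR letters were in 15.99% of all promoters, in 10 of 33 promoters of the mitosis list (30.3%) and in 4 of 33 of the DNA replication list (12.1%). CCAAT letters were in 33.8% of all promoters, in 78.8% of the mitosis promoters and in 57.6% of the replication promoters. The E2F letters TTTGGCGC or TTTCCCGC were in 1.30% of all promoters, in 1 of 33 mitosis promoters (3.03%) and in 7 of 33 replication promoters (21.2%). These promoters belonged to 32 of the 38 mitosis genes and 26 of the 32 replication genes, and a match is a description of letters, not a measured binding site.

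The rule genes chose the cells, so their values are given as a description. Mki67 and Top2a were each detected in 87.3% of the cycling cells, Pclaf in 84.3%, Birc5 in 79.7% and Ube2c in 65.7%. Of the UMIs of these genes over all kept barcodes, between 56.0% (Top2a) and 89.4% (Ube2c) lay in the 236 cells. Just inside the threshold were 70 cells with 3 of the 5 genes, beside 86 with 4 and 80 with 5, and just outside it were 124 barcodes with 2.

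Cycling cells were deeper than the rest. Their median was 5031.5 and 9348.5 UMIs in KO 1 and KO 2, and 3375 and 9885 UMIs in Control 1 and Control 2. The other kept barcodes had medians of 1900 and 2855 UMIs in the KO libraries, and 1207 and 2227 UMIs in the Control libraries. Whole libraries held 8290677 to 20537236 UMIs, lowest in Control 1, and they shared 6 to 22 barcode sequences a pair, with 0 shared cycling barcodes. Ccn1 itself was rare: in KO 1 and KO 2 it had 0 and 12 UMIs in 0 and 2 kept barcodes, against 183 and 146 UMIs in 72 and 30 kept barcodes of Control 1 and Control 2. Among the cycling cells it had 0 UMIs in both KO libraries, against 28 and 2 UMIs in the Control libraries, of which 23 and 2 lay in stromal-like cells.

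The label of immune cells held for most of the cells. Ptprc, which encodes the leukocyte antigen CD45, was detected in 205 of the 236 (86.9%), and 221 had Ptprc or the markers of an immune class. Of the 15 cells with neither, 9 belonged to a group of 12 stromal-like cells from the Control libraries. The 12 carried Dcn and Col3a1, the genes of a matrix proteoglycan and a fibrillar collagen, and 3 of the 12 had a Ptprc UMI. Of the class's other markers, Col1a2 was detected in 11 cells of Control 1 and 1 of Control 2, Lum in 2 and 1, and Pdgfrb in 0 and 0. Upk3b and Msln, known from mesothelial cells, were detected in 7 and 6 of the 11 Control 1 cells and in the 1 Control 2 cell. The 12 cells were kept, since the rule does not ask for Ptprc, and their weight is given where it matters.

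The share of cycling cells was lower in the KO livers in both libraries, in a design too small for a p under 0.05. It was 0.782% in KO 1 (56 of 7157 kept barcodes, exact 95% interval 0.592 to 1.01%) and 0.750% in KO 2 (38 of 5065, 0.531 to 1.03%). It was 1.63% in Control 1 (77 of 4718, 1.29 to 2.04%) and 0.917% in Control 2 (65 of 7090, 0.708 to 1.17%). Both KO libraries lay below both Control libraries, Control 1 stood apart at the top, and the intervals of Control 2 and the KO libraries overlapped. The intervals cover counting error only.

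The means were 0.766 ± 0.0228% in KO and 1.27 ± 0.506% in Control livers (SD, n = 2 each), a difference of -0.508 percentage points with an exact two-sided permutation p of 0.333, the smallest that 2 against 2 libraries allow. Without Control 1 the difference was -0.150 points. Without stromal-like and endothelial-like cells it was -0.435 points, with 0.769 and 0.751% in KO 1 and KO 2. Control 1 and Control 2 were then at 1.48 and 0.911%. Because a deeper barcode passes the rule more easily, the expected share was also computed with every barcode thinned to 1000 UMIs. It was then 0.369 and 0.319% in KO 1 and KO 2, against 1.03 and 0.379% in Control 1 and Control 2. The 5444 kept barcodes under 1000 UMIs, of which 6 were cycling, were left out of that calculation.

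**Figure D1:**
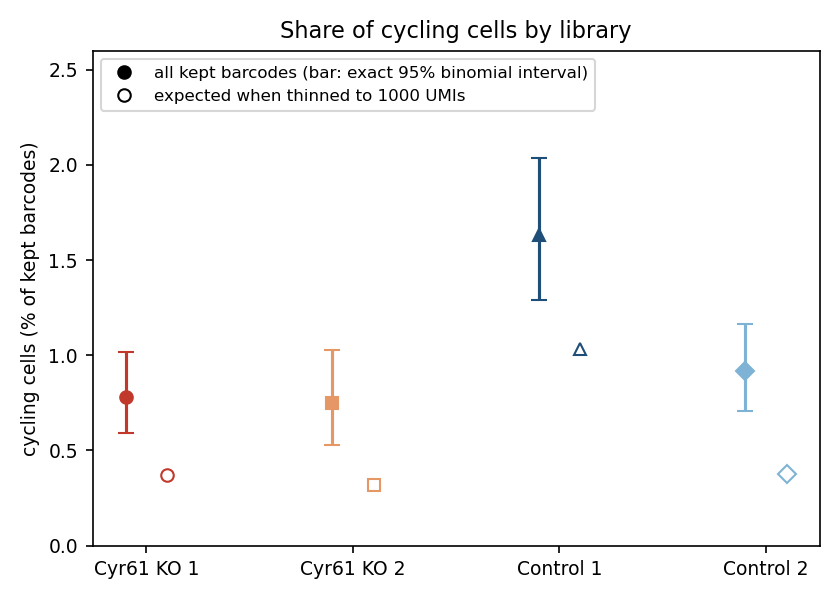
Share of cycling cells among kept barcodes (y axis, percent) in each library. Filled symbols give all kept barcodes with exact 95% binomial intervals and open symbols the expected share after thinning to 1000 UMIs. Control 1 is highest at 1.63% and the KO libraries lie at 0.782 and 0.750%.

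T cells were the main lineage in cycle. Cells were classed by 5 marker genes per class, with at least 2 detected and more than for any other class. Of the 236 cells, 122 were T-like, 28 monocyte/macrophage-like, 16 NK-like, 10 B-like, 6 neutrophil-like, 5 plasma-like and 4 conventional dendritic-like. A further 12 were stromal-like, 1 was endothelial-like and 32 stayed unassigned, 14 through ties and 18 with under 2 markers. The plasmacytoid dendritic class had no cycling cell among 13 and 25 barcodes in KO 1 and KO 2 and among 52 and 48 in Control 1 and Control 2. Taking 3 counts of the total as the limit of a zero, these allow shares of up to 23.1 and 12.0% in the KO libraries and 5.77 and 6.25% in the Control libraries.

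Each lineage was also read from its defining gene, with the share in a class that should lack it as background. Cd3e, a signalling chain of the T cell receptor, was detected in 27 of 56 and 25 of 38 cycling cells of KO 1 and KO 2 (48.2 and 65.8%), against 30 of 77 and 26 of 65 of Control 1 and Control 2 (39.0 and 40.0%). B-like cells, which should lack it, had it in 1.94 to 4.26%, at medians of 1104 to 2414 UMIs. With thinning to 1000 UMIs Cd3e was in 24.1 and 18.4% of the KO and 24.7 and 15.4% of the Control cycling cells, which overlapped, against 0.893 to 3.05% of B-like cells. Cd8a, the co-receptor of cytotoxic T cells, was detected in 16.1 and 28.9% of the KO and 15.6 and 15.4% of the Control cycling cells, against 0.166 to 2.24% of B-like cells. After thinning it was in 7.41 and 10.5% of the KO and 6.85 and 4.62% of the Control cycling cells, against 0 to 0.966% of B-like cells. Lyz2, the lysozyme of myeloid cells, was detected in 19.6 and 21.1% of the KO and 26.0 and 46.2% of the Control cycling cells. In B-like cells it was in 4.82 to 8.64%, and with thinning to 1000 UMIs in 2.34 to 6.93%, against 13 and 7.89% of the KO and 17.8 and 30.8% of the Control cycling cells.

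The markers of the other lineages were found in fewer cells. Cd79a, a signalling chain of the B cell receptor, was detected in 17.9 and 15.8% of the KO and 6.49 and 7.69% of the Control cycling cells, against 1.79 to 4.38% of T-like cells at medians of 1475 to 3738 UMIs. After thinning it was in 5.56 and 2.63% of the KO and 4.11 and 3.08% of the Control cycling cells, which overlapped, against 1.17 to 2.02% of T-like cells. At full depth Cd79a was in 10 and 6 KO cycling cells, against 5 and 5 Control ones. By class, B-like cycling cells were 2 and 0 in KO, against 3 and 5 in Control, so most KO cells with Cd79a were not B-like. Ncr1, the NKp46 receptor of NK cells, was detected in 14.3 and 7.89% of the KO and 10.4 and 3.08% of the Control cycling cells, against 0.319 to 0.563% of B-like cells. After thinning it was in 5.56 and 0% of the KO and 6.85 and 0% of the Control cycling cells, against 0.138 to 0.344% of B-like cells. Jchain, which joins IgA and IgM molecules in plasma cells, was detected in 4 and 1 cycling cells of the KO libraries (7.14 and 2.63%) and 1 and 5 of the Control libraries (1.30 and 7.69%), against 0.461 to 1.48% of T-like cells. After thinning it was in 7.41 and 2.63% of the KO and 1.37 and 1.54% of the Control cycling cells, against 0.0777 to 0.590% of T-like cells. Siglech, a surface protein of plasmacytoid dendritic cells, had 1 UMI in 1 of the 236 cells, from Control 1 (1.30%), against 0.0449 to 0.230% of T-like cells.

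**Figure D2:**
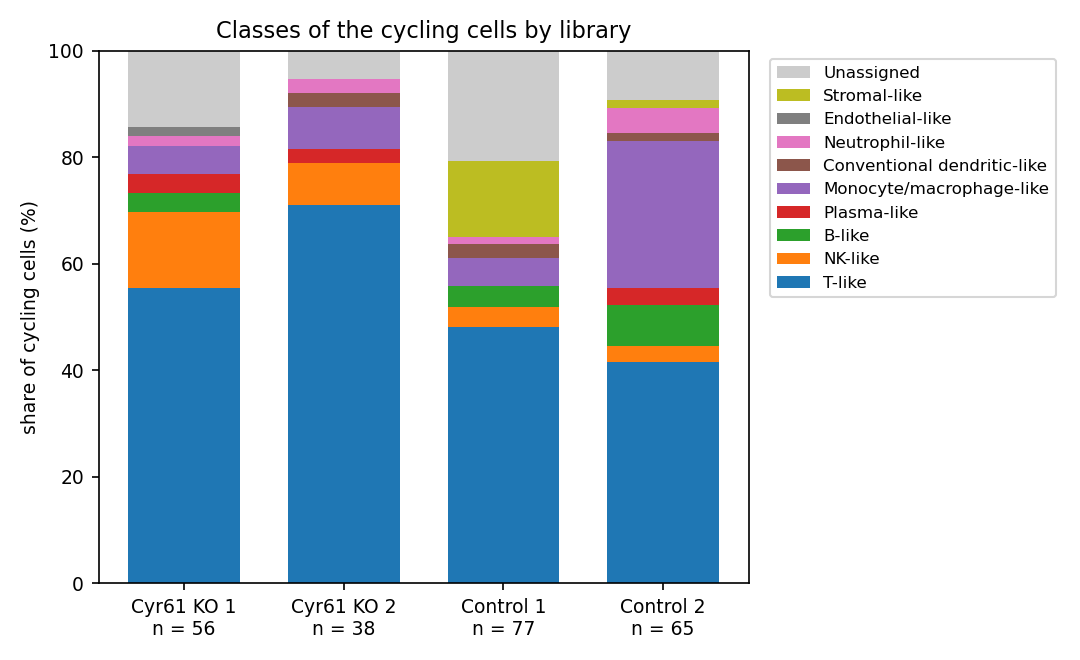
Classes of the cycling cells (y axis, percent of the cycling cells of the library) in each library, with the number of cycling cells under each bar. T-like cells are the largest class in each of the 4 libraries, stromal-like cells are seen in the Control libraries, and the monocyte/macrophage-like class is largest in Control 2.

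T-like and NK-like cells were a larger share of the cycling cells in both KO libraries at full depth, but not in each setting. T-like cells were 31 of 56 and 27 of 38 in KO 1 and KO 2 (55.4 and 71.1%), against 37 of 77 and 27 of 65 in Control 1 and Control 2 (48.1 and 41.5%). NK-like cells were 8 and 3 in the KO libraries (14.3 and 7.89%), against 3 and 2 in the Control libraries (3.90 and 3.08%). Monocyte/macrophage-like cells were 3 and 3 in KO (5.36 and 7.89%), against 4 and 18 in Control (5.19 and 27.7%), so Control 2 stood apart from the other libraries. B-like cells were 2 and 0 in KO, against 3 and 5 in Control, and stromal-like cells were 0 and 0 in KO, against 11 and 1 in Control. Without stromal-like and endothelial-like cells, T-like cells were 31 of 55 in KO 1 and 37 of 66 in Control 1, nearly the same share. In KO 2 they were then 27 of 38 and in Control 2 27 of 64.

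None of these differences in makeup passed the test. The groups did not overlap for the T-like, NK-like, B-like and stromal-like shares, each with an exact permutation p of 0.333, and overlapped for the monocyte/macrophage-like share. With thinning to 1000 UMIs, the rule and the classes were here applied anew to a random draw. The thinned values of lineage genes, phase and second classes are instead of cells chosen at full depth. T-like cells were then 7 of 16 and 11 of 19 in KO 1 and KO 2 (43.8 and 57.9%). In Control 1 and Control 2 they were 14 of 29 and 7 of 23 (48.3 and 30.4%). Unassigned cells were 37.5 and 31.6% in KO, against 27.6 and 43.5% in Control. NK-like cells were 3 and 0 in KO (18.8 and 0%), against 1 and 0 in Control (3.45 and 0%), so T-like and NK-like shares overlapped. Both also overlapped without cells that carried markers of a second class, where T-like shares were 56.8 and 83.3% in KO, against 58.7 and 46.9% in Control, and NK-like shares 18.2 and 4.17% in KO, against 4.76 and 4.08% in Control. B-like shares overlapped at 2 or more rule genes and at 10% mitochondrial UMIs. In edgeR's quasi-likelihood test on cell numbers, 0 of 5 classes passed an adjusted p (Benjamini-Hochberg) of 0.05 and 0 had an unadjusted p under 0.05. The log2 change (KO over Control) was 0.47 ± 0.26 (SE) for T-like and 1.63 ± 1.57 for NK-like cells. It was -1.41 ± 2.06 for B-like, -1.29 ± 1.30 for monocyte/macrophage-like and -5.29 ± 2.92 for stromal-like cells, and the smallest adjusted p was 0.252. The value for stromal-like cells rests on 0 KO cells and is no estimate of size. Without stromal-like and endothelial-like cells the change was 0.36 ± 0.37 for T-like and 1.53 ± 1.12 for NK-like cells. Without Control 2 the monocyte/macrophage-like change was 0.29.

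A lineage can be common among dividing cells because it is common, so the share in cycle was taken within each class. Of the T-like cells, 31 of 2634 and 27 of 2254 were cycling in KO 1 and KO 2 (1.18 and 1.20%), against 37 of 1772 and 27 of 3073 in Control 1 and Control 2 (2.09 and 0.879%). The KO values lay between those of the Control libraries. NK-like cells were cycling at 1.94 and 0.756% in KO, against 2.14 and 0.881% in Control, again overlapping. Monocyte/macrophage-like cells were cycling at 1.09 and 2.04% in KO, against 0.924 and 3.94% in Control. The log2 changes were -0.30 ± 0.85 (T-like), -0.07 ± 1.41 (NK-like) and -0.69 ± 1.34 (monocyte/macrophage-like) by edgeR, each with an adjusted p of 0.960.

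B-like cells were abundant and rarely in cycle. They were cycling in 2 of 2506 barcodes of KO 1 (0.0798%) and 0 of 1599 of KO 2, which allows up to 0.188%, against 3 of 604 in Control 1 (0.497%) and 5 of 1787 in Control 2 (0.280%). Both KO libraries lay below both Control libraries, with a log2 change of -2.75 ± 1.60 by edgeR and an adjusted p of 0.492, so 0 of 4 classes passed and 0 had an unadjusted p under 0.05. Without Control 2, the T-like class passed, with a log2 change of -0.81 and an adjusted p of 0.0356 in edgeR, and without Control 1 it stood at 0.43.

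Plasma-like cells were few, and several met the rule. They were cycling in 2 of 12 and 1 of 8 barcodes of the KO libraries, against 0 of 7 and 2 of 6 of the Control libraries. At 4 or more rule genes this was 0 of 12 and 1 of 8 in KO, against 0 of 7 and 0 of 6 in Control. With at most 10% mitochondrial UMIs it was 2 of 11 and 1 of 6 in KO, against 0 of 6 and 0 of 4 in Control. Of the 2 cells of Control 2, 1 had 649 genes, 1 Jchain UMI and 2 plasma-like markers. Stromal-like cells were cycling in 11 of 249 barcodes of Control 1 and 1 of 60 of Control 2, 3.88% in all. No KO barcode was stromal-like, so no share could be set against these. In a tissue digest, fewer cells of a type recovered and fewer present cannot be told apart.

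Some cycling cells carried markers of a second class, and they were not removed. This held for 12 of 56 and 14 of 38 in KO, against 14 of 77 and 16 of 65 in Control, 56 in all (23.7%). The commonest pairs were NK-like with T-like (13 cells), B-like with plasma-like (8) and conventional dendritic-like with monocyte/macrophage-like (8). In the other barcodes the share was 8.20 and 9.07% in KO, against 5.80 and 12.6% in Control. After thinning to 1000 UMIs it was 3.70 and 2.63% of the KO cycling cells, against 1.37 and 0% of the Control cycling cells. In the other barcodes it was then 2.33 and 1.74% in KO, against 3.03 and 3.56% in Control.

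Among the cycling T-like cells, as among the other T-like cells, cells with CD8 transcripts outnumbered those with CD4. Of 31 and 27 cells in KO 1 and KO 2, 10 and 12 had Cd8a or Cd8b1 without Cd4, against 16 of 37 and 10 of 27 in Control 1 and Control 2. Cd4 without CD8 was seen in 6 and 5 KO cells, against 3 and 7 Control cells. In 15 and 10 KO cells and 18 and 10 Control cells neither was detected. The CD8 share averaged 38.4 ± 8.62% in KO and 40.1 ± 4.39% in Control (SD, n = 2 each, exact permutation p = 1), and the CD4 share 18.9 ± 0.591% in KO and 17 ± 12.6% in Control (exact permutation p = 1). Trdc, the constant chain of the gamma-delta T cell receptor, was detected in 6 and 1 KO cells, against 2 and 1 Control cells. Foxp3, the defining factor of regulatory T cells, was detected in 3 and 3 KO cells, against 0 and 1 Control cells. Over all libraries, CD8 without Cd4 was seen in 4172 of 9611 other T-like cells, against 48 of 122 cycling ones. Cd4 without CD8 was seen in 951 of the other cells, against 21 cycling ones. Trdc was detected in 867 of the other cells, against 10 cycling ones, and Foxp3 in 58, against 7. The other cells were less deep, and these differences were not tested.

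Most cycling cells carried more mitotic than replication transcripts. In cells thinned to 1000 UMIs, replication-list UMIs exceeded mitosis-list UMIs in 14.3 and 16.2% of the cells of KO 1 and KO 2, against 13.9 and 15% of those of Control 1 and Control 2, leaving out ties. The median cell had 3 and 3 replication UMIs and 10 and 10.5 mitosis UMIs in the KO libraries, against 2 and 3 replication UMIs and 11 and 7 mitosis UMIs in the Control libraries. The difference was 0.807 percentage points with an exact permutation p of 0.667, and without KO 2 it was -0.159. Without thinning it was 4.14 points (19.5% in KO and 15.3% in Control, exact permutation p = 1), and in thinned T-like cycling cells it was -1.22 points (exact permutation p = 1). Of the rule genes, Top2a, Birc5 and Ube2c peak in G2 and mitosis and Mki67 encodes a protein of mitotic chromosomes, whereas Pclaf belongs to replication. The cells were thus chosen partly on mitotic transcripts, and how far this set the balance was not tested. The lists hold 38 mitosis and 32 replication genes, so their sums are not on 1 scale and do not give the phase of a cell.

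The transcripts that set cycling T-like cells apart from other T-like cells are given as a description, since the rule chose on this contrast. Summed counts were scaled to CPM (a gene's UMIs per 1000000 UMIs of the summed cells), and differences are on the log2(CPM + 1) scale, over genes at 50 CPM or more in either state. Among genes at 50 CPM or more in cycling cells, the 15 genes outside the rule with the largest differences were histone genes (Hist1h1b, Hist1h3c, Hist1h2ae, Hist1h2ab, Hist1h2ap), mitotic cyclins (Ccnb2, Ccna2, Ccnb1), spindle genes (Nusap1, Tpx2, Hmmr, Ckap2l) and Cenpf (a kinetochore protein), Aurkb (the kinase of the passenger complex) and Cdca3 (a trigger of mitotic entry). Their mean differences ran between 6.11 (Ccnb1) and 7.26 (Hist1h1b). Ccnb2, the B2 cyclin, was at 279 and 286 CPM in cycling cells of KO 1 and KO 2 and 261 and 258 CPM in those of Control 1 and Control 2. In other T-like cells it was at 1.43 and 0.765 CPM in KO, and 1.36 and 0.699 CPM in Control.

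Replication, mitosis and histone genes were higher in cycling cells without exception in the lists used. This held in each library for 23 of 23 replication, 31 of 31 mitosis and 11 of 11 histone genes at that level, against 40.5% of 3063 genes in all. The median difference was 2.94, 5.53 and 3.43 for these lists, against 0.24 over all genes. Pcna, the replication clamp, differed by 1.82 ± 0.155 (SD, n = 4 libraries), and H2afz, the replication-independent histone H2A.Z, by 2.35 ± 0.158. Of 9 cell cycle brakes 3 were higher in each library and 3 lower, with a median of -0.15. Cdkn2c, an inhibitor of CDK4 and CDK6, stood at 2.97 ± 0.574, whereas the antiproliferative gene Btg1 stood at -1.38 ± 0.432 and its relative Btg2 was also lower in each library.

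Genes of resting and recirculating T cells were lower in the cycling cells. Of 8 naive and homing genes, 7 were lower in each of the 4 libraries, against 18.7% of all genes. Il7r, the receptor for the survival cytokine IL-7, was at 140 and 103 CPM in cycling cells of KO 1 and KO 2 and 67.5 and 72.6 CPM in those of Control 1 and Control 2. In other T-like cells it was at 509 and 508 CPM in KO and 389 and 343 CPM in Control. The difference was -2.22 ± 0.271, and it was -2.49 ± 0.435 for Satb1 (a chromatin organiser) and -1.70 ± 0.406 for Lef1 (a factor of naive T cells). S1pr1, the receptor for lymph exit, was the exception at 0.02 ± 0.359. Bcl2 (survival), Txnip (a brake on glucose uptake), Egr1 and Fosl2 (immediate early factors), Socs1 (a brake on cytokine signals) and Rps27rt were also among the 10 lowest.

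Effector genes did not move as one in cycling T-like cells. Gzma, granzyme A, was at 1908 and 705 CPM in cycling cells of KO 1 and KO 2 and 521 and 515 CPM in those of Control 1 and Control 2, against 115 and 279 CPM in other T-like cells of KO and 98.5 and 93.7 CPM in those of Control. Gzmb, granzyme B, was higher by 1.57 ± 0.141, whereas Ccl5, a chemokine of memory cells, was lower in each library, at -0.91 ± 0.720. Of 9 cytotoxic genes, 3 (33.3%) were higher in each library and 3 (33.3%) lower, against 40.5% higher and 18.7% lower over all genes. Of 14 immediate early and heat shock genes 11 (78.6%) were lower in each library, and of 8 glycolysis genes 5 (62.5%) were higher. Cd8a and Cd4 differed by -0.06 ± 0.437 and 0.04 ± 0.361.

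**Figure D3:**
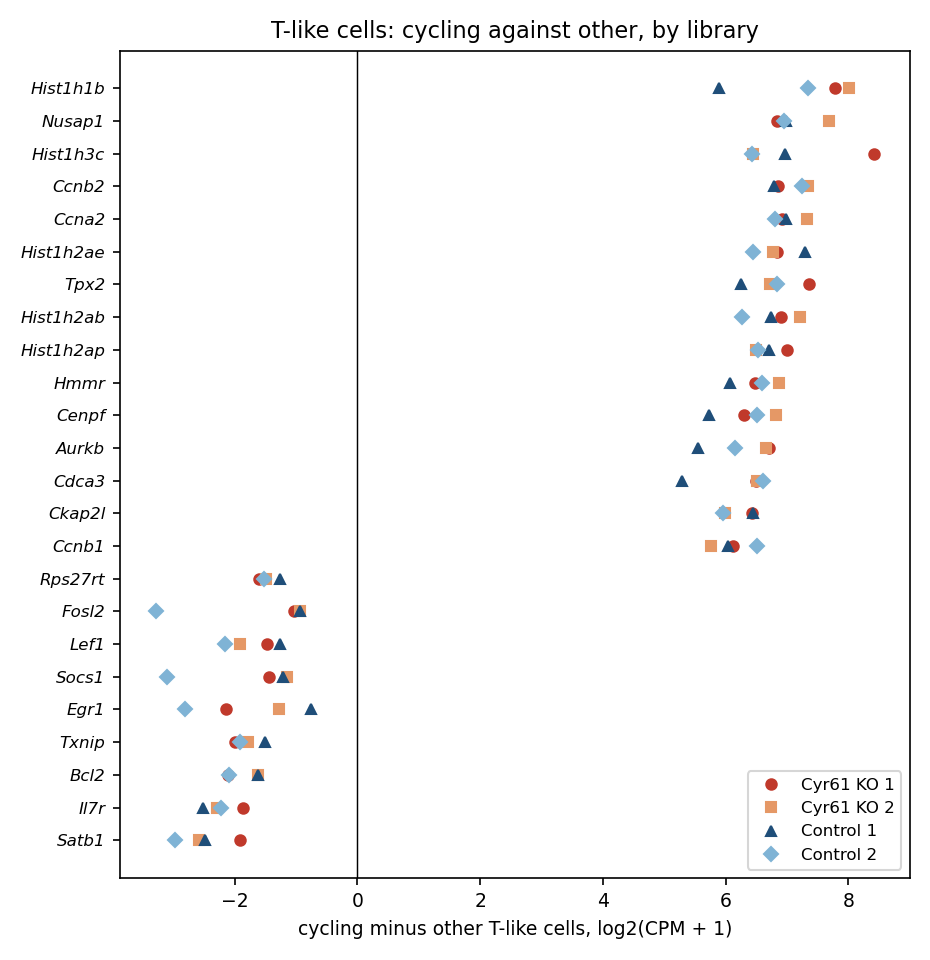
Difference between cycling and other T-like cells (x axis, log2(CPM + 1)) for the 15 highest and 9 of the 10 lowest genes, with a symbol per library. The 15 upper genes lie between 5.29 and 8.41 in each library, and the 9 lower genes lie below 0 in each library.

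Between KO and Control, few genes passed in the cycling cells as a whole, and they were mainly genes known from plasma cells, macrophages and stroma. Summed over all cycling cells, 11 of 5605 genes passed edgeR's adjusted p of 0.05 (0.196%), of which 3 (0.0535%) rose and 8 (0.143%) fell in KO. By DESeq2 63 passed. The genes that rose encode antibody chains: Igha (log2 change 3.07 ± 0.30, adjusted p 0.0187), Igkc (3.69 ± 0.46) and Jchain (3.82 ± 0.50). Those that fell included the macrophage genes Apoe (a lipid carrier, -6.16 ± 0.54, adjusted p 0.0149), C1qa and C1qb (complement), and Fn1 (fibronectin, -7.29 ± 0.92). KO and Control libraries did not overlap for 49.8% of all genes tested, so that alone sets no gene apart.

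The antibody genes rested on a few cells. Jchain was at 506 and 1272 CPM in KO 1 and KO 2, against 73.3 and 43.4 CPM in Control 1 and Control 2. It had 182 UMIs in 4 cells of KO 1 and 531 UMIs in 1 cell of KO 2, against 34 UMIs in 1 cell of Control 1 and 31 UMIs in 5 cells of Control 2. The KO 2 cell was plasma-like with 17815 UMIs, and it also held 5180 of the 5226 Igkc and 1093 of the 1094 Igha UMIs of its library. Without cells that carried markers of a second class, Igkc changed by -1.07. That setting left out all 3 plasma-like cycling cells of the KO libraries, which also carried 3 B-like markers each. It kept the 2 plasma-like cycling cells of Control 2.

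The complement and lipid genes rested on a few Control cells. C1qa had 0 UMIs in both KO libraries, against 45 and 44 UMIs (97.0 and 61.6 CPM) in Control 1 and Control 2, at least 19.6-fold lower in KO with 3 counts over the group as floor. C1qb likewise had 0 UMIs in KO, against 73 and 53 UMIs in Control, at least 27.7-fold lower. The C1qa UMIs came from 4 cells of Control 1 and 3 of Control 2, and 1 of the Control 2 cells held 38. Apoe was at 2.78 and 14.4 CPM in KO 1 and KO 2, against 750 and 451 CPM in Control 1 and Control 2, where 1 cell held 236 of 348 and another 194 of 322 UMIs.

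The other genes that fell had most of their UMIs in myeloid and stromal-like cells, with Fabp5 also in 32 T-like cells (21.5% of its UMIs). Fn1 was at 11.1 and 2.40 CPM in KO libraries, against 1593 and 348 CPM in Control libraries, and 498 of its 739 UMIs in Control 1 and 138 of 249 in Control 2 lay in stromal-like cells. Mgst1, a glutathione transferase, was at 16.7 and 4.79 CPM in KO libraries, against 185 and 162 CPM in Control libraries. Fabp5 (a fatty acid carrier, -2.26 ± 0.31), Ifitm2 (an interferon-induced membrane protein, -2.63 ± 0.37) and Anxa1 (annexin A1, -2.60 ± 0.37) also fell. Of the 261 Anxa1 UMIs of Control 1, 205 lay in stromal-like cells. How much of these changes follows the makeup of the cells was not tested.

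**Figure D4:**
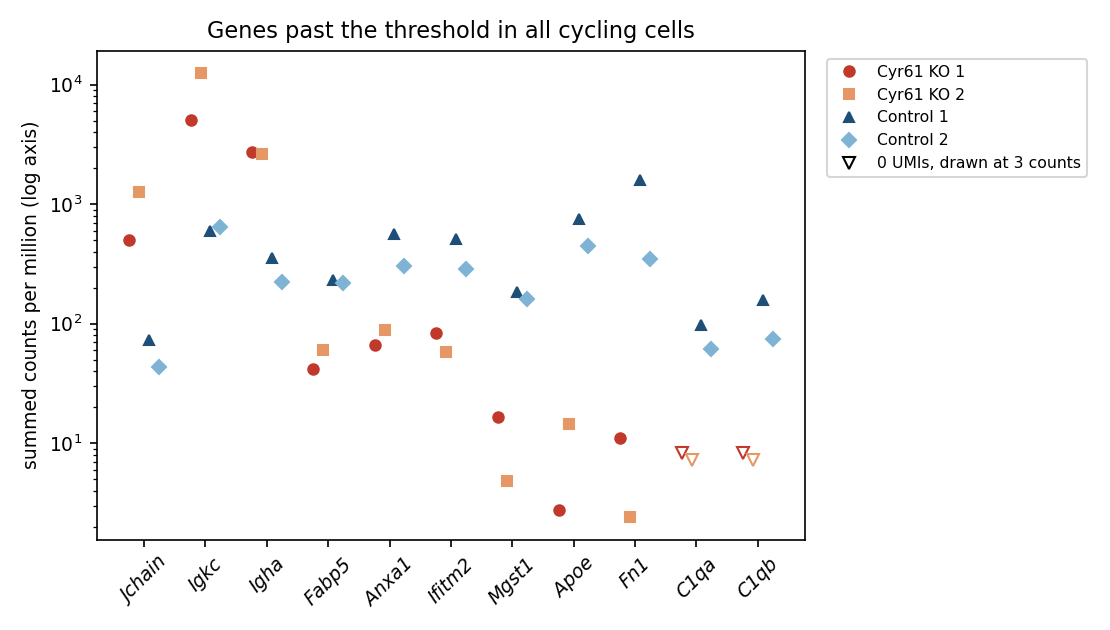
Summed CPM (y axis, log scale) over all cycling cells in each library for the 11 genes past the threshold. Open triangles mark libraries with 0 UMIs, drawn at the level of 3 counts, and both KO libraries lie above both Control libraries for Jchain, Igkc and Igha and below them for the other 8 genes.

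These calls depended on single choices. With at most 10% mitochondrial UMIs, without cells that carried markers of a second class, or without KO 2, 0 genes passed, and without the stromal-like and endothelial-like cells 41 passed, 9 of them among the 11. Leaving out Control 1 or Control 2 gave 326 or 732 calls.

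Inside the monocyte/macrophage-like class the KO libraries offered 6 cells and the Control libraries 22. C1qa was detected in 0 of 3 and 0 of 3 cells of KO 1 and KO 2, against 1 of 4 and 2 of 18 cells of Control 1 and Control 2. Ly6c2, a marker of inflammatory monocytes, was detected in 2 of 3 and 2 of 3 KO cells, against 0 of 4 and 11 of 18 Control cells. The 3 KO 2 cells had 9 Lyz2 UMIs among 52271 UMIs. The other monocyte/macrophage-like cells of KO 2 had 219 Lyz2 UMIs per 10000, against 1.72 in these 3. The 3 KO 1 cells had 207 Lyz2 UMIs among 20801, with 137 and 69 in 2 of them and 1 in the last. That last cell had 4194 UMIs and 2 markers of its class. The low Lyz2 level thus goes against the class name for the 3 KO 2 cells and 1 KO 1 cell. Each KO 2 cell had 3 of the 5 class markers, with Lyz2 itself counted as 1 of them. Of the 28 cycling cells in this class, 7 sat at the threshold of 2 markers.

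Among the other gene groups, the C1q and lipid-associated macrophage list held calls between KO and Control cycling cells, and the naive, cytokine receptor and MHC class II lists held none. The 8 naive and homing genes were higher in both KO libraries than in both Control libraries (background 31.5% of genes), with 0 passed and a median log2 change of 1.38, against -0.03 over all genes. Il2rb, the shared receptor chain of IL-2 and IL-15, was at 347 and 328 CPM in KO libraries, against 127 and 118 CPM in Control libraries (1.33 ± 0.25, adjusted p 0.0892 by edgeR). Of 9 MHC class II genes 8 were lower in both KO libraries (background 18.4%), with 0 passed and a median of -1.40. H2-Eb1 was nearest at -1.82 ± 0.27, with 300 and 225 CPM in KO libraries, against 931 and 758 CPM in Control libraries (adjusted p 0.0504 by edgeR). Of the 10 C1q and lipid-associated macrophage genes 8 were tested and 4 fell (Apoe, C1qa, C1qb and Fabp5), against 0.143% of all genes. The list's median was -4.70, and -4.19 with C1qa and C1qb at their bounds.

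The lists of cell cycle genes outside the rule had 0 genes past the threshold. Of 29 replication genes tested 0 passed, with a median log2 change of 0.18, and of 37 mitosis genes 0 passed, with a median of 0.08. The rule genes chose the cells, so their levels are given without a test. Mki67 was at 742 and 632 CPM in KO libraries, against 435 and 403 CPM in Control libraries. Top2a was at 825 and 788 CPM in KO libraries, against 565 and 514 CPM in Control libraries. Pclaf was at 769 and 884 CPM in KO libraries, against 735 and 819 CPM in Control libraries, and overlapped. The lists of cell cycle brakes (14 tested), histones (13) and G1 cyclins and E2F factors (13) likewise had 0.

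Within cycling T-like cells, 1 of 3430 genes passed (0.0292%) when KO was set against Control. It was AY036118, annotated as a long noncoding RNA on chromosome 17 (39848112 to 39898385, mm10) at a place known for ribosomal RNA sequence, which makes its counts uncertain. It was at 498 and 114 CPM in KO 1 and KO 2, against 2557 and 1176 CPM in Control 1 and Control 2 (-2.72 ± 0.48, adjusted p 0.0498 by edgeR). In other T-like cells it was likewise lower, at 681 and 176 CPM in KO libraries, against 3455 and 2339 CPM in Control libraries. Gm42418, another noncoding transcript from ribosomal RNA sequence, was at 13861 and 8383 CPM in KO libraries, against 24853 and 26248 CPM in Control libraries (-1.31 ± 0.34, adjusted p 0.432 by edgeR).

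That call ended in 5 of 14 alternatives, namely at 4 or more rule genes, at 1000 or more UMIs, without cells that carried markers of a second class, by DESeq2 and without KO 2. By DESeq2 0 genes passed, and 38 had an unadjusted p under 0.05, against 243 by edgeR.

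The gene groups of the cycling T-like cells stayed without a call. Naive and homing genes had positive log2 changes in 8 of 8, with 7 not overlapping (background 25.4% of genes), 0 passed and a median of 0.68, against 0.01 over all genes. Satb1 was at 135 and 95.2 CPM in KO 1 and KO 2, against 28.9 and 36.3 CPM in Control 1 and Control 2 (1.61 ± 0.45, adjusted p 0.433 by edgeR). Ccr7, the receptor for lymph node homing, was at 69.8 and 72.4 CPM in KO libraries, against 19.3 and 29.0 CPM in Control libraries (1.31 ± 0.54, adjusted p 0.658). The other T-like cells had the same order of groups, with Satb1 at 511 and 573 CPM in KO libraries, against 167 and 292 CPM in Control libraries, and Ccr7 at 214 and 249 CPM in KO libraries, against 48.7 and 89.7 CPM in Control libraries. Of 36 mitosis genes 15 were higher in both KO libraries and 0 passed, with a median of 0.29. The MHC class II list had a median of -0.03 here over 4 genes tested, and the C1q list was down to Fabp5 (-1.93 ± 0.44, adjusted p 0.306).

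The KO effect itself was then compared between cycling and other T-like cells. Of 9491 genes, 2 passed the test of this difference (0.0211%), both higher: S100a4 and a T cell receptor gamma variable segment. S100a4, a calcium-binding protein of memory and effector cells, was at 2103 and 1363 CPM in cycling T-like cells of KO 1 and KO 2, against 1331 and 1122 CPM in those of Control 1 and Control 2. In other T-like cells it was at 393 and 365 CPM in KO libraries, against 886 and 508 CPM in Control libraries. The order of the groups was thus turned round between the states, and the difference of the log2 changes was 1.19 ± 0.25 (adjusted p 0.00705 by edgeR). Within cycling T-like cells alone its log2 change was 0.39 ± 0.32 (adjusted p 0.809 by edgeR). KO and Control libraries did not overlap in this difference for 34.9% of genes. By DESeq2 0 genes passed and 138 had an unadjusted p under 0.05, against 461 by edgeR, and without KO 1 edgeR also called 0.

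**Figure D5:**
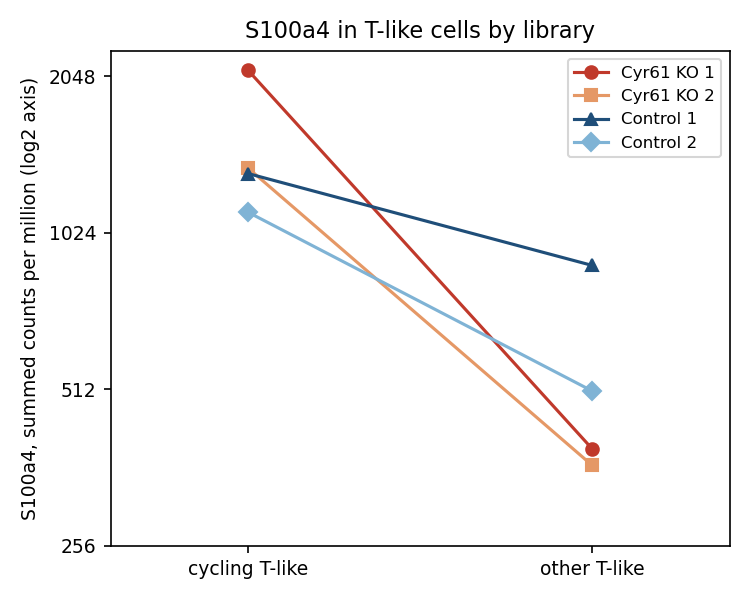
S100a4 in summed CPM (y axis, log2 scale) in cycling and other T-like cells, with a line per library. The KO libraries lie above the Control libraries in cycling cells, where KO has 2103 and 1363 CPM and Control 1331 and 1122 CPM. They lie below them in other T-like cells, where KO has 393 and 365 CPM and Control 886 and 508 CPM.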

How the data were processed

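Per the submitters' processing notes, the authors used Cell Ranger 3.1.0 and the mm10 build, and what the authors deposited are un-normalized UMI counts, as a gene-by-barcode matrix for each of the 4 libraries. From these counts, barcodes with at least 250 genes and at most 25% mitochondrial UMIs were kept, and cells were classed by detected markers. No doublets were removed, since cells with markers of a second class were only counted. Counts were summed per library over all cycling cells and over T-like cells (at least 20 cycling a library) and tested with edgeR 4.0.16 (TMM, quasi-likelihood, filterByExpr, Benjamini-Hochberg), with DESeq2 1.42.0 (R 4.3.3) as an alternative. The difference between the KO effects in cycling and other T-like cells was an interaction term with library as a term. Cell numbers per class were tested the same way where a class had at least 10 cycling cells. Shares were compared by exact permutation (scipy 1.17.1, Python 3.11.15), with exact 95% binomial intervals. SE is the size of the log2 change divided by the square root of edgeR's F. The scripts were tested on simulated data. Genes were named by a rule: the rule and lineage genes, genes past the threshold with groups that did not overlap (up to 10 in each direction), in each list the 4 tested members with the highest mean CPM and all that passed, and for cycling against other T-like cells the 15 highest and 10 lowest outside the rule. Other genes named (among them Satb1, Ccr7, S1pr1, Cdkn2c, Btg1, Btg2, Gm42418 and the genes read in the monocyte/macrophage-like and stromal-like cells) were chosen after their values were seen. Receptor and antibody variable segments were counted but not named, and 1 of the 10 lowest genes is not reported here. The members, markers and lists were chosen with earlier results of these data known. Alternatives changed the rule, the filters, the class markers, the tool and the libraries.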

Additional observations from a re-analysis of the deposited data

Results flagged for a closer look

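The KO effect on S100a4 differed between cycling and other T-like cells by 1.19 on the log2 scale, in a test of that difference itself (edgeR's interaction term, adjusted p 0.00705). The call ended by DESeq2 (1.18), without KO 1 (0.97) and without KO 2 (1.44), and held in the other 10 of 13 alternatives.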

How the results depend on the processing

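Depth and cell number limit these results: 94 KO and 142 Control cells in 2 libraries a group, and classes of a few cells. The number of genes past the threshold in all cycling cells (11) was 17 at 2 or more rule genes, 1 at 4 or more, 0 at 10% mitochondrial UMIs, 2 at 1000 or more UMIs, 0 without cells that carried markers of a second class, 63 by DESeq2, 571 without a filter on low counts and 41 without stromal-like and endothelial-like cells, a setting chosen after seeing the data. Leaving out 1 library gave 0 (without KO 2) to 732 (without Control 2), with 326 without Control 1. In T-like cycling cells (1) it was 5, 0, 0, 0, 0 and 5 at 2 or more rule genes, at 4 or more, at 1000 or more UMIs, without second-class cells, by DESeq2 and without the filter, and 2 (without KO 2) to 49 (without Control 1) with 1 library left out. For the difference between KO effects (2) it was 23, 6, 8 and 0 at 2 or more rule genes, at 4 or more, at 10% mitochondrial UMIs and by DESeq2, and 0 (without KO 1) to 19 (without Control 1 or Control 2). A group left with 1 library was assumed to vary like the other.

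Non-overlap of T-like and NK-like shares was lost with thinning and without second-class cells. Direction was reversed for Igkc without second-class cells (-1.07), and within lineages for NK-like cells with thinning (0.013) and with 3 class markers (0.090). Leaving out 1 library reversed the phase difference without KO 2 (range -0.159 to 1.77 points) and the monocyte/macrophage-like share of cycling cells without Control 2 (-2.08 to 0.29). Within lineages it reversed the NK-like value without Control 1 or KO 2 (-0.88 to 0.60, with 0.43 without KO 2), the T-like value without Control 1 (-0.81 to 0.43) and the monocyte/macrophage-like value without Control 2 (-1.42 to 0.63). Leaving out 1 library gave 0 to 1 classes past the threshold within lineages. The cause of these changes was not tested. Of the other values, 228 kept direction and side of the threshold, 71 lost the call and 1 gained it. The share of cycling cells was lower in KO under each alternative run, between -0.150 and -0.935 points.

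The replicate numbers are shared by KO and Control libraries. Same-numbered libraries correlated at 0.0860 in all cycling and 0.101 in T-like cycling cells, as deviations from the mean of their group. With 2 libraries a group both pairs give the same value by construction, so whether the numbers mark pairs cannot be told. With the replicate block 502 genes passed in all cycling cells and 1 in T-like cycling cells, and 0 classes passed (smallest adjusted p 0.418 for makeup and 0.292 within lineages).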
